A study of Mus musculus with 6 samples.

Results

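Replication-dependent histone genes supply the histones that package newly copied DNA, and in the mouse they lie in a large cluster and smaller ones. Regions of open chromatin at these clusters were taken from ATAC-seq of thymus, an assay that sequences the ends of DNA fragments freed by a transposase where chromatin is accessible. The regions are all peak summits inside 3 intervals of GRCm38, chr13:21700000-23700000 (called Hist1 here), chr3:96150000-96350000 (Hist2) and chr11:58900000-59000000 (Hist3), extended by 250 bp on each side and merged over the 6 libraries. This gave 134 regions of 73702 in the whole series, with 89 in Hist1, 29 in Hist2 and 16 in Hist3. The intervals hold 275 annotated genes, of which 57 are histone genes (55 coding and 2 pseudogenes), 84 are tRNA genes and 58 are other protein-coding genes.

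Of the 6 libraries, 3 came from p53 AD/- thymus and 3 from p53 -/- thymus. AD is a germline p53 allele that the series describes as dimeric, carried over a null allele, and the -/- mice have null alleles only, so neither genotype has wild-type p53 and every mouse carries a null allele. All mice were 4 weeks old, of a 50% BALB/C - 50% C57BL6 background. No wild-type thymus is among the groups, and nothing in the labels says whether a library is 1 mouse, so p-values measure only the spread between these libraries.

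Nucleosomes hold an octamer of the core histones H2A, H2B, H3 and H4, and the linker histone H1 binds where DNA enters and leaves. Genes for the replication-dependent forms lack introns, are transcribed in S phase with the coactivator NPAT, and their mRNAs end in a stem-loop instead of a poly(A) tail. Many H2A and H2B genes stand head to head in pairs and share the stretch between their starts. The thymus at this age is filled with T cell precursors, some of which are dividing. In the large cluster, tRNA genes, which RNA polymerase III transcribes from promoters inside the gene, lie among the histone genes, together with vomeronasal receptor genes, whose products act in the vomeronasal organ of the nose.

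Promoter windows, from 250 bases before to 50 bases after the annotated start, come from RefSeq (GRCm38.p6) and were available for 51 of the 57 histone genes. The first pair of windows is shown because each covers a whole head-to-head H2A-H2B promoter: that of H2ac15, whose summit had the highest percentile of such pairs (chr13:21753863-21754162, minus strand), and that of H2ac12, whose summit was on the same base in all 6 libraries (chr13:22035594-22035893, minus strand). Capitals mark matches, on either strand, to the TATA box (TATAAA), the CCAAT box (CCAAT or ATTGG), the octamer (ATGCAAAT) and an E2F motif (TTNGCGC).
H2ac15: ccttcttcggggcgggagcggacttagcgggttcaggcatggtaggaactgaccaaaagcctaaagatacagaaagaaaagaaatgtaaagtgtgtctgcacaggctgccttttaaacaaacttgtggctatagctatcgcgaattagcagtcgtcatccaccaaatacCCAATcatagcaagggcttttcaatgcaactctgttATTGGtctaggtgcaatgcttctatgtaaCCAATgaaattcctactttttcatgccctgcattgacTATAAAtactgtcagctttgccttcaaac
H2ac12: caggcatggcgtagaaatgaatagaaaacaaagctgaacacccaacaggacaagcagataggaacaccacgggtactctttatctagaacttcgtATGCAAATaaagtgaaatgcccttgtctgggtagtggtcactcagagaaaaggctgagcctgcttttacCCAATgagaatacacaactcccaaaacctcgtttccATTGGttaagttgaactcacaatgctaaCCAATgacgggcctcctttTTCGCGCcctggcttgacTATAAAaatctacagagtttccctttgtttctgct
The next windows are pairs of alike promoters whose summits differed: H2ac18 (chr3:96245247-96245546, plus strand) and H2ac19 (chr3:96240325-96240624, minus strand).
H2ac18: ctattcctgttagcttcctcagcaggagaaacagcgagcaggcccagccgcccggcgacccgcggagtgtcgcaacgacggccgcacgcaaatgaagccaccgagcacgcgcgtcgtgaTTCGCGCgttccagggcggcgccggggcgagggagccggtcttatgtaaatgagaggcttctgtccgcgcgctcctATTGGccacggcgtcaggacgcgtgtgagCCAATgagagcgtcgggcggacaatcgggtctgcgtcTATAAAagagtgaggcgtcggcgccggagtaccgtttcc
H2ac19: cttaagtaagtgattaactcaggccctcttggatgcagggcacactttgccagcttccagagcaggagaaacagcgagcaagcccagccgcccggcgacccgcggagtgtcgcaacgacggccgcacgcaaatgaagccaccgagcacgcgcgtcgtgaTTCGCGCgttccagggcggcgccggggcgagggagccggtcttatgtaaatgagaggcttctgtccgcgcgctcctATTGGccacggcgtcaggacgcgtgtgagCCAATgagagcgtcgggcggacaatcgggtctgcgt
Likewise H4c11 (chr13:21734784-21735083, plus strand) and H4c12 (chr13:21750504-21750803, minus strand) are shown.
H4c11: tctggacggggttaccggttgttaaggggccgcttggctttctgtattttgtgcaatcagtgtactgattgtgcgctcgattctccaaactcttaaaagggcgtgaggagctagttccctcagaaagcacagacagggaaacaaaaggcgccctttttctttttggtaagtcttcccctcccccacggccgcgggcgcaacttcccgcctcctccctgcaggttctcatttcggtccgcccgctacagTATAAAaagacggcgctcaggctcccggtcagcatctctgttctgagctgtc
H4c12: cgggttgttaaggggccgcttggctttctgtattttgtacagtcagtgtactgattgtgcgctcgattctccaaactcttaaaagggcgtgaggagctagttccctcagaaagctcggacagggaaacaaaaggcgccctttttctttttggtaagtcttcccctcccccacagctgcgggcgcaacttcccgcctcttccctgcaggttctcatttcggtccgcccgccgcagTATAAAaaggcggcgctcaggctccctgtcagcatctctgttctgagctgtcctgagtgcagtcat
The last pair sets H2ac7 (chr13:23574131-23574430, plus strand), which had a summit in every library, beside H2ac23 (chr13:21810117-21810416, plus strand), which had none.
H2ac7: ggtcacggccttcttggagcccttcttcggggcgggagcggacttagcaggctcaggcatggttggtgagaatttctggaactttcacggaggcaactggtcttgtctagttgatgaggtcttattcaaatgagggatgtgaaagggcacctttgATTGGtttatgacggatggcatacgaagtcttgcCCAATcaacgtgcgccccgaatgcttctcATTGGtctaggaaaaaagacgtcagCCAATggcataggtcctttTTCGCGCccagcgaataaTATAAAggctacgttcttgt
H2ac23: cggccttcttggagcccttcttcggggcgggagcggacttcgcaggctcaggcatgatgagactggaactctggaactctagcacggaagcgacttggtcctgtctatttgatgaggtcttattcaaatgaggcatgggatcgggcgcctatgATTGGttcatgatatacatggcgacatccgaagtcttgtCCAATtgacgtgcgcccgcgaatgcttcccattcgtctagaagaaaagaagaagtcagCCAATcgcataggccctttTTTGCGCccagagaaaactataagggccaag
In the H2A windows the TATA match, where there was one, began after the annotated start, at base 21 in H2ac15, base 15 in H2ac12, base 11 in H2ac18 and base 30 in H2ac7, counting the start as 0. A TATA box normally lies before the start of transcription, so distances to these annotated starts are distances to the annotation.

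The deposited lists hold 44496 to 60160 summits per library, with AD/- library 3 the shortest. Each summit has a score, read as the −log10 of a q-value, and a percentile in what follows ranks that score among the summits of one library (100 is the highest). Since the lists differ in length, percentiles of one gene are not strictly comparable between libraries. The read depth behind a summit is unknown, so no interval can be given for a single value, and a gene without a summit is one at which none was called. A gene or start called open here has a summit within 500 bp. The lists hold summits and no peak widths, so a start without a summit may still lie inside a peak. T cell markers had a summit within 500 bp of the start in all 6 libraries for 11 of 12 genes (all but Bcl11b, whose nearest summit was 651 to 669 bp away). Of markers for other cells, this held for 1 of 6 B cell genes (Ebf1), 1 of 6 thymic epithelial genes (Aire), 0 of 6 erythroid genes and 0 of 6 myeloid genes. Cd79b had a summit in 3 libraries and Itgam in 5. No library had one at Cd79a, Ms4a1 and Pax5 of the B cell list, Gata1, Klf1, Hba-a1, Hbb-bt and Epor of the erythroid list, Csf1r, Lyz2, Cd14, Adgre1 and Mpo of the myeloid list, or Foxn1, Psmb11, Krt5, Krt8 and Epcam of the epithelial list.

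The histone intervals held more open regions per length than the series as a whole, and a larger share of them was found in every library. Both are descriptions, with no test. Hist1 had 44.5 regions per Mb, Hist2 145 and Hist3 160, against 28.9 over the whole series. A summit was present in all 6 libraries in 92 of the 134 regions (68.7%), against 52.0% in the rest of the series. The mix of regions differs, since 29.9% of the 134 had no annotated gene start within 500 bp of a summit, against 80.5% of the rest. Among such regions the share in all 6 libraries was 52.5%, against 44.8% in the rest. It was lower than in the rest at tRNA genes (68.3% against 88.5%) and at starts of other coding genes (73.3% against 87.0%). No library had more than 1 summit in any of the 134 regions. In the 92 shared regions the summit moved by a median of 44 bp between libraries, against 49 bp over all shared regions, and 3 of them had the summit on the same base in all 6 libraries. These 3 were the H2ac12-H2bc12 promoter, the start of H4c9 and the start of Bola1, a neighbour in Hist2.

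Histone gene starts had the highest median score percentile of the kinds of region in the intervals. Of the 134 regions, 36 had a histone gene start within 500 bp of a summit, 41 a tRNA gene, 15 the start of another coding gene and 2 another annotated start, and 40 had no annotated start. Of the 36 at histone genes, 31 (86.1%) were found in all 6 libraries and their median percentile was 91.1. The other coding starts in the intervals had 11 of 15 regions in all 6 libraries (73.3%) at a median percentile of 73.1, against 87.0% and 86.8 for coding starts in the whole series. Regions with no annotated start had 21 of 40 (52.5%) in all 6 libraries at a median percentile of 42.6, against 44.8% and 28.5 in the whole series.

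**Figure D1:**
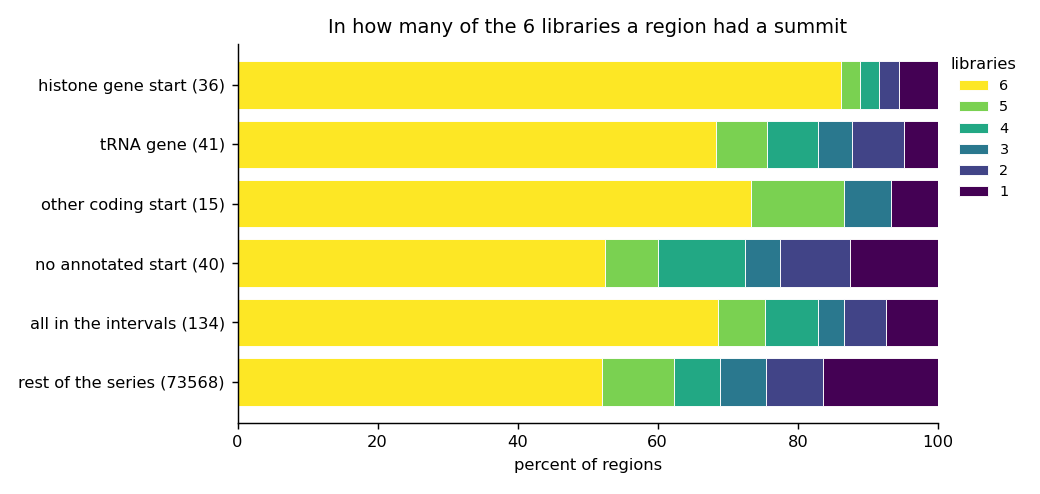
Horizontal bars give the percent of regions (x axis) found in 6, 5, 4, 3, 2 or 1 libraries, for each kind of region in the histone intervals, for all 134 regions and for the 73568 other regions of the series (number of regions in brackets). The bar for all 6 libraries reaches 86.1% at histone gene starts, 68.3% at tRNA genes and 52.0% in the rest of the series.

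Within a library, the median percentile of summits at histone gene starts stood above that at the starts of other protein-coding genes. The median percentile at histone starts was 91.1, 91.8 and 88.2 in AD/- libraries 1, 2 and 3, and 91.7, 90.6 and 91.1 in null libraries 1, 2 and 3. Set against all other coding gene starts of the same library, the difference was 2.77, 2.45 and 1.64 points in the AD/- libraries and 3.42, 2.31 and 1.83 points in the null libraries. It was thus positive in 6 of 6 libraries, with a mean of 2.40 points. The same genes enter each library, so these are not independent sets of genes. The upper quartile at histone starts was not always above that at coding genes outside the intervals. It was lower in AD/- library 3 (92.1 against 93.6), null library 2 (93.0 against 94.6) and null library 3 (94.6 against 94.9). In AD/- libraries 1 and 2 and null library 1 it was higher.

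Gene by gene, 42 of the 57 histone genes (73.7%) had a summit within 500 bp of the start in all 6 libraries, 4 in some libraries and 11 in none. Outside the intervals, this held for 10797 of 21518 protein-coding genes (50.2%). Within the intervals, 14 of 17 H2A genes, 14 of 17 H2B genes, 8 of 10 H4 genes, 5 of 9 H3 genes and 1 of 4 H1 genes had a summit in all 6 libraries. The H1 and H3 counts are small and depend on where the interval ends. In the same cluster past that end, H1f1, H1f2 and H3c2 had a summit in all 6 libraries, and H3c1 and H3c3 had none. Of the 42 genes, 29 stood at a median percentile of 90 or more and 4 below 70.

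**Figure D2:**
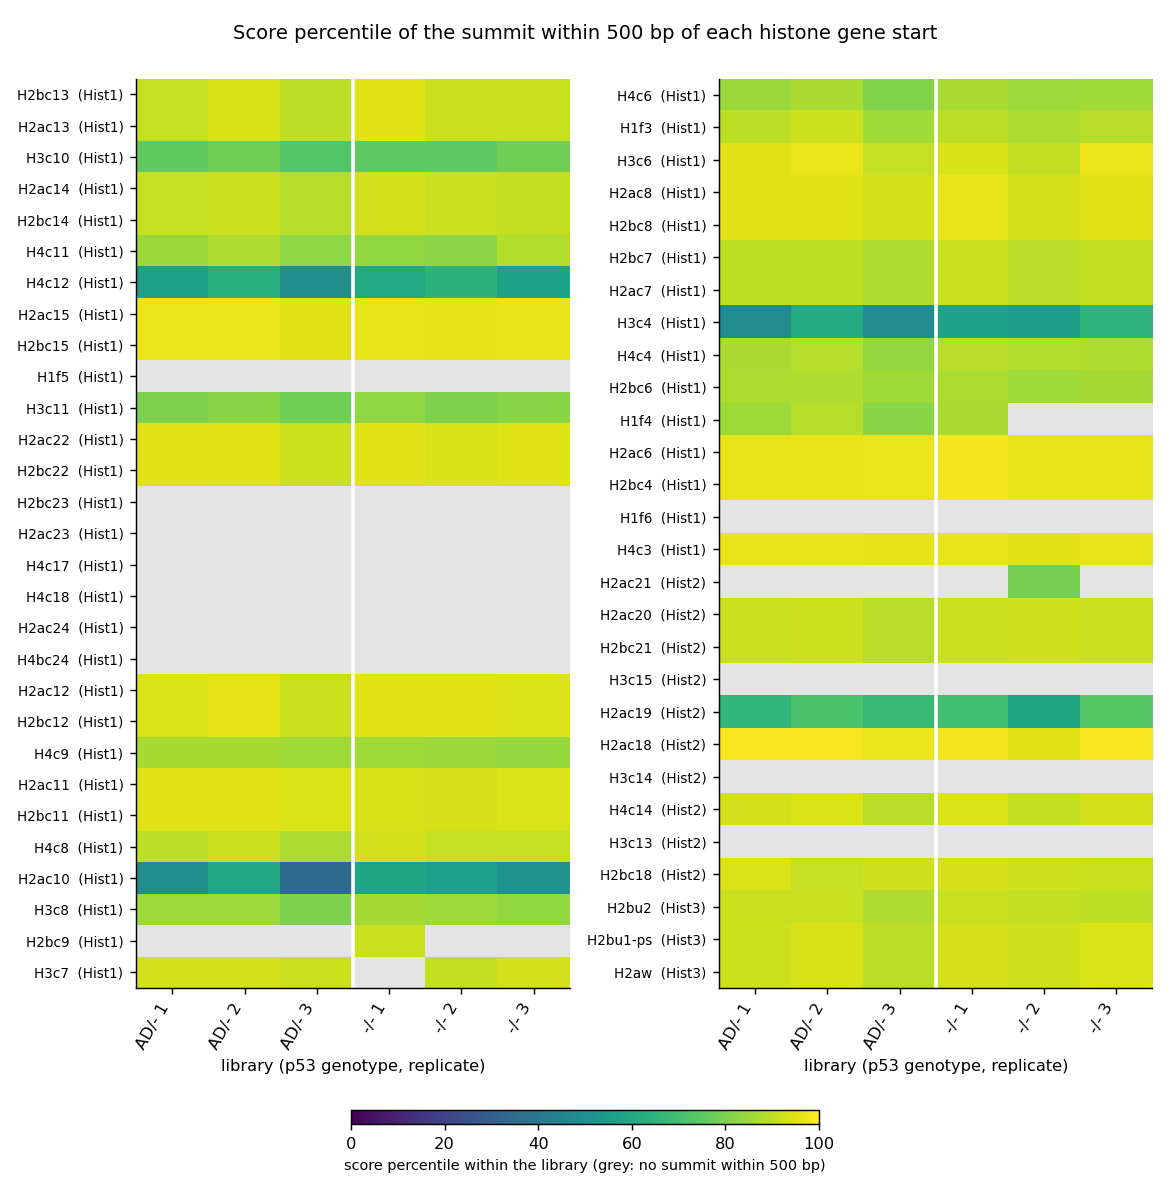
Each row is a histone gene in genome order within its interval (left panel, then right panel), each column a library, with p53 AD/- left and p53 -/- right of the white line, and the colour is the score percentile within the library of the summit within 500 bp of the gene start (grey: none). Most rows have one colour across all 6 libraries, 11 rows are grey throughout, and H2ac10, H3c4, H4c12 and H2ac19 are the dark rows with medians of 53.8 to 68.4.

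Most head-to-head H2A-H2B promoters had 1 high-ranking summit between the 2 starts. The annotation gives 9 such pairs with known strands, whose starts lie 164 to 268 bp apart (median 180 bp). In 7 of them a single region in all 6 libraries covered both genes, with the mean summit position between the starts, at median percentiles of 90.4 to 96.8. The 7 promoters are H2bc13-H2ac13, H2ac15-H2bc15, H2ac22-H2bc22, H2ac12-H2bc12, H2ac11-H2bc11, H2ac8-H2bc8 and H2bc7-H2ac7. The other 2, H2bc23-H2ac23 and H2ac24-H4bc24 (H4bc24 is the symbol of an H2B gene, synonym Hist1h2br), had no region. The 14 genes in open pairs had a median percentile of 95.0, with the 1 summit of each pair counted for both genes. The 28 other histone genes with a summit in all 6 libraries had a median of 91.1 and a wider range (53.8 to 98.4). Some of these also share a summit but lack a known strand, such as H2bc21, which shares that of H2ac20 (91.6). The values therefore do not set paired against unpaired promoters.

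Among H2A genes, which encode a core histone that pairs with H2B, H2ac18 in Hist2 had the highest percentile and H2ac10 in Hist1 the lowest. H2ac18 stood at 98.5, 98.5 and 97.1 in AD/- libraries 1 to 3, against 98.3, 95.6 and 98.5 in null libraries 1 to 3. H2ac10 reached 50.0, 59.7 and 34.8 in AD/- thymus, against 58.8, 56.5 and 51.2 in null thymus. The genotypes overlapped for both genes, and the lowest value of H2ac10 was in AD/- library 3, which had the shortest list. Over the 13 H2A genes with 1 annotated start, a known strand and a summit in all 6 libraries, the median summit position over libraries lay before the start in all 13, with a median over genes of −95 bp (negative means upstream).

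H2ac21 in Hist2 was the H2A gene found in 1 library only. Null library 2 had a summit 90 bp before its start at percentile 79.7, and in the other libraries the nearest summit was 1012 to 1055 bp away, at the promoter shared by H2ac20 and H2bc21. That promoter had a summit in all 6 libraries, null library 2 included, at 91.4, 92.4 and 89.1 in AD/- and 91.7, 93.0 and 91.4 in null. H2ac23 and H2ac24 had none in any library.

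H2B genes with a summit in all 6 libraries had medians of 87.1 to 96.8. The top was H2bc15, which shares its promoter with H2ac15, at 97.2, 97.2 and 95.3 in AD/- libraries and 96.8, 95.9 and 96.7 in null libraries. The bottom was H2bc6, at 87.6, 88.3 and 85.8 in AD/- libraries and 87.5, 85.8 and 86.6 in null libraries. H2bc6 has a second annotated start in Hist1, and its value in null library 3 came from a summit there. In the 10 H2B genes with 1 start and a known strand the summit lay upstream in all 10, with a median of −101 bp. Of these genes, 7 share their summit with an H2A gene of a head-to-head pair. A summit between 2 such starts lies upstream of both, so the H2A and H2B positions are not independent.

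H2bc9 and its neighbour H3c7 each had a summit in some libraries. At H3c7, an H3 gene, the summit was on base 23544457 of chromosome 13 in AD/- libraries 1 to 3 and null libraries 2 and 3, at percentiles of 93.0, 93.1 and 92.1 in AD/- and 90.6 and 93.2 in null. Null library 1 had none there but had a summit at 23543444, on the annotated start of H2bc9 and 1013 bp from the other, at percentile 92.1. Each library thus had 1 of the 2 summits, and neither counts as a difference between genotypes. The annotation gives no strand for H3c7, so either end counted as a start. Its summit lies inside the gene, 405 bp from the nearer end.

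H3 and H4 form the tetramer at the core of the nucleosome. The summit position had a median of 0 bp over the 5 H3 genes and 0.5 bp over the 7 H4 genes that have 1 start and a known strand. It was farther from the start in H3c8 (−56.5 bp), H4c8 (71 bp) and H4c11 (387 bp), as medians over libraries. Of H3 genes with a summit in all 6 libraries, H3c6 was the highest, at 95.5, 97.1 and 91.4 in AD/- libraries and 93.9, 90.8 and 96.9 in null libraries. H3c4 was the lowest, at 48.2, 61.7 and 48.3 in AD/- libraries and 57.6, 55.8 and 65.0 in null libraries. The remaining H3 genes open in all libraries, H3c8, H3c11 and H3c10, had medians of 85.3, 81.1 and 75.5.

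H3c13, H3c14 and H3c15, the 3 H3 genes of Hist2, had no summit within 500 bp. For H3c15 the nearest summit was 521 to 524 bp away in every library, just outside the limit. For H3c13 it was 926 to 1017 bp away and for H3c14 1398 to 1430 bp. H3f4, an H3 variant gene in Hist3 whose symbol is not among those that define the histone genes here, had its nearest summit 1552 to 1588 bp away.

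Of the H4 genes, H4c3 was the highest at 96.7, 96.4 and 95.8 in AD/- libraries and 96.4, 95.6 and 96.5 in null libraries. H4c12 was the lowest at 57.1, 62.7 and 49.5 in AD/- libraries and 60.6, 64.5 and 57.9 in null libraries. The other H4 genes with a summit in all 6 libraries (H4c4, H4c6, H4c8, H4c9, H4c11 and H4c14) had medians of 84.5 to 93.2. H4c17 and H4c18 had none within 500 bp.

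Of the 4 H1 genes, H1f3 alone had a start summit in all 6 libraries. It stood at 90.2, 92.5 and 86.3 in AD/- libraries and 90.1, 87.7 and 89.3 in null libraries, with the summit inside the gene, 61 to 102 bp after the start. H1f4 had a summit in AD/- libraries 1 to 3 at 85.6, 88.9 and 82.1 and in null library 1 at 87.4. Null libraries 2 and 3 had none there and had one instead at the second start of H2bc6, 1316 and 1318 bp from the H1f4 start, at 84.6 and 86.6. All 3 AD/- libraries and null library 1 thus had the H1f4 summit, and null libraries 2 and 3 the other.

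H1f5 had its nearest summit 1125 to 1178 bp from the start in every library. H1f6, which encodes the H1 of the testis, had it 2619 to 2653 bp away.

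**Figure D3:**
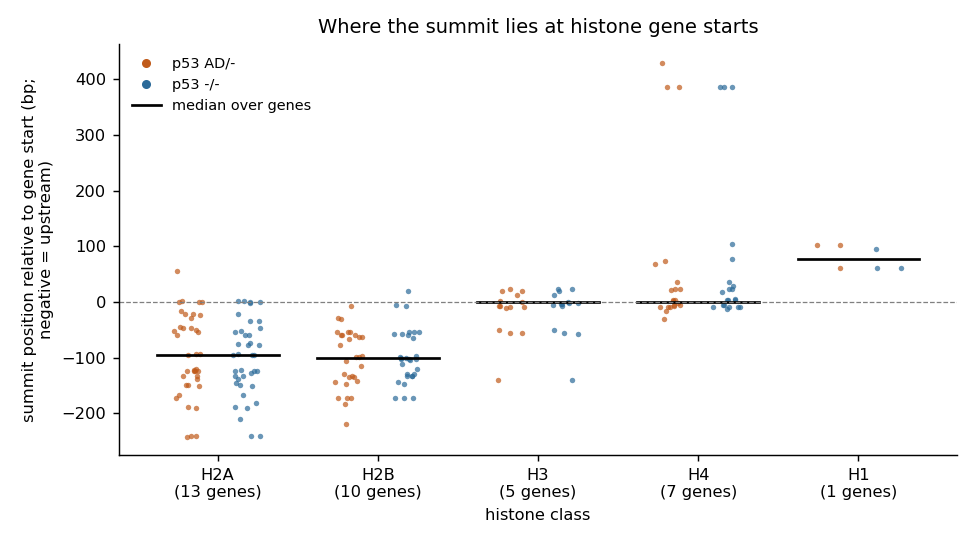
Points give the position of the summit relative to the annotated gene start (y axis, bp, negative is upstream) in each library, for histone genes with 1 annotated start, a known strand and a summit in all 6 libraries, by class (x axis), with p53 AD/- left and p53 -/- right in each class and black bars at the median over genes. H2A and H2B summits lie mostly before the start (medians −95 and −101 bp), H3 and H4 summits mostly around it (medians 0 and 0.5 bp), and the points near 400 bp are H4c11. In head-to-head pairs the same summit is drawn for the H2A gene and for the H2B gene.

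A block of 6 histone genes in Hist1 stood without a start summit in any library. It consists of H2bc23, H2ac23, H4c17, H4c18, H2ac24 and H4bc24 and spans 21806412 to 21837530 on chromosome 13. A stretch of 24.5 kb without a region lies between the open H2ac22-H2bc22 promoter and the first region in the block. The only regions inside the block were 3 found in some libraries. One lay 658 bp from the start of H4c17, at percentile 53.1 in AD/- library 2 and 58.4, 39.2 and 58.2 in null libraries 1 to 3. Another lay 663 or 664 bp from the start of H4c18 and was found in the same libraries, at 40.7 in AD/- library 2 and 54.1, 35.1 and 44.8 in null libraries 1 to 3. AD/- libraries 1 and 3 had neither. The third, 1636 bp from H4c18, was at 6.9 in AD/- library 3 and 3.5 in null library 3.

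Some genes of the block have near copies within it. The promoter windows of H2bc23 and H4bc24 matched at 300 of 300 bases, and those of H4c17 and H4c18 at 298 of 300. H3c14 and H3c15, also without a start summit, matched at 284 of 300. The labels give a read length of 50 nt. The sources used here do not say how reads that map to several places were treated, so the absence of a summit at such copies is uncertain, and its part in these results was not tested.

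Copies with high identity also differed in score where both had summits. H2ac18 and H2ac19 matched at 256 of 300 bases in windows set off against each other, with one identical run of 219 bases. H2ac19 stood at 65.9, 71.7 and 67.2 in AD/- libraries and 69.6, 59.1 and 73.7 in null libraries, below H2ac18 in every library. H4c11 and H4c12 matched at 274 of 300 bases, with a longest identical run of 72. H4c11 stood at 85.2, 88.0 and 82.9 in AD/- libraries and 83.9, 82.7 and 88.6 in null libraries, above H4c12 in every library. Their summits also lay at different places, 387 to 430 bp after the start in H4c11 and within 31 bp of it in H4c12. H2ac7 and H2ac23 matched at 247 of 300 bases with no identical run over 40. H2ac7 stood at 90.4, 90.3 and 88.2 in AD/- libraries and 91.6, 89.2 and 90.8 in null libraries, and H2ac23 had no summit within 500 bp. Values at these genes share the uncertainty on reads that fit more than one place.

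**Figure D4:**
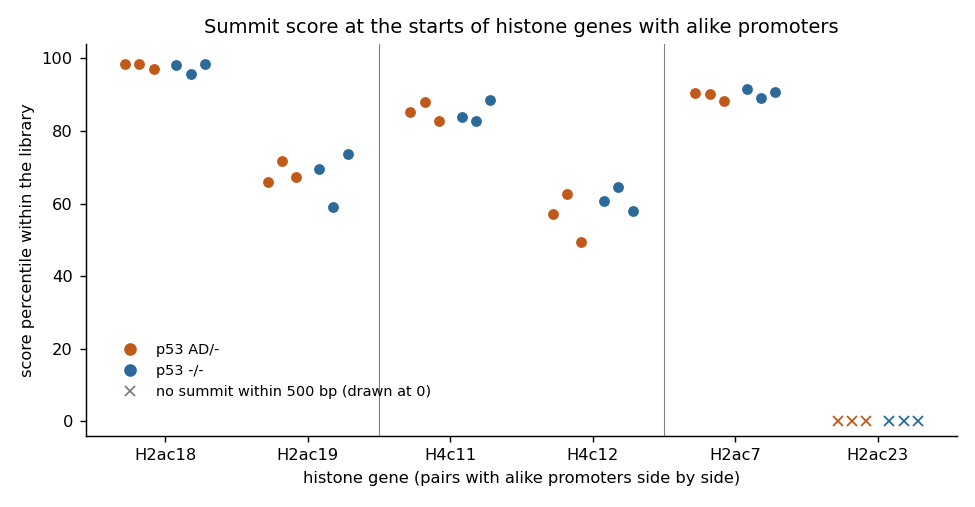
Points give the score percentile within each library (y axis) of the summit at the start of 6 histone genes, set side by side in pairs with alike promoters, with p53 AD/- left and p53 -/- right for each gene, and crosses drawn at 0 stand for no summit within 500 bp. All 6 libraries place H2ac18 above H2ac19 and H4c11 above H4c12, and H2ac23 has crosses only. The H4c11 summit lies 387 to 430 bp after the start, past the promoter window.

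Promoter letters of the histone genes were rich in the motifs named for them. TATAAA was in 28 of the 52 windows (53.8%; H2bc6 has 2 windows), against 13.6% of the 32851 promoter windows of the same length in the table. CCAAT, the site of NF-Y, was in 45 (86.5%), against 37.4%. It was in all 16 H2A, all 15 H2B, all 8 H3 and all 4 H1 windows but in 2 of 9 H4 windows. The octamer, the site of OCT1 (Pou2f1), was in 10 windows (19.2%, against 1.74%), 5 of H2A and 5 of H2B genes. All 10 belong to genes with a summit in all 6 libraries, which have 38 windows, and none to the 11 windows of genes without a summit. Of those 11 windows, only the ones of H2bc23, H2ac23, H2ac24 and H4bc24 are of H2A or H2B genes. The 2 sets thus differ in histone class, and a link between octamer and summit was not tested. The E2F motif was in 16 windows (30.8%, against 6.36%), all of H2A or H2B genes, and 4 of these belong to genes without a summit. The p53 half-site was in 5 windows (9.62%, against 8.36%). Windows of head-to-head pairs overlap, so the same bases can count for 2 genes, and a match is a run of letters, not a bound site.

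The genotypes were compared first by how much was called in the intervals. The count of summits was 111, 119 and 102 in AD/- libraries 1 to 3 and 114, 113 and 119 in null libraries 1 to 3. AD/- averaged 110.7 ± 8.5 summits and null averaged 115.3 ± 3.2 (SD, n = 3 each). The genotypes overlapped and the exact two-sided permutation test gave p = 0.5, where 3 libraries against 3 cannot go below 0.1. As a share of all summits of the library, this was 0.203%, 0.198% and 0.229% in AD/- and 0.211%, 0.203% and 0.205% in null, for which the same exact test gave p = 0.9. The highest share was in AD/- library 3, which had the shortest list, and without it the difference in share changed sign. By interval, Hist1 had 75.3 ± 5.5 summits in AD/- thymus and 77.3 ± 2.5 in null thymus (SD over 3 libraries, exact permutation p = 0.7). Hist2 had 22.0 ± 3.6 in AD/- thymus and 23.7 ± 0.58 in null thymus (exact p = 0.8), and Hist3 had 13.3 ± 0.58 in AD/- thymus and 14.3 ± 0.58 in null thymus (exact p = 0.3).

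The share of histone genes with a start summit was 77.2% in each AD/- library and 77.2%, 77.2% and 75.4% in null libraries 1 to 3 (p = 1 in the same exact test). No histone gene had a start summit in all 3 libraries of one genotype and in none of the other. Over all 21631 protein-coding genes, 8 (0.037%) had one in every AD/- library but no null one, and 7 (0.0324%) the reverse.

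Of the 134 regions, 1 was present in every AD/- library and absent from every null library, which held for 0.179% of all regions. None, or 0, showed the opposite pattern, against 0.418% of all regions. The AD/- region is at chr13:22020372-22020872, in the tRNA-rich part of Hist1, 522 bp from the tRNA gene n-TRacg1. Its summit was on base 22020622 in all 3 AD/- libraries, at percentiles of 50.9, 54.5 and 41.2. The nearest null summits lay 1854 and 1855 bp away, at the tRNA gene n-TScga1, where all 6 libraries had a summit, at 53.04, 57.7 and 50.6 in AD/- and 62.4, 58.0 and 54.6 in null. A region with 3 libraries against 3 cannot pass a test, and 1 region is too few to set against the background share. The count was 2 without null library 1 or 3, and the opposite count was 3 without AD/- library 2 or without null library 1.

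Of the 42 regions not found in all 6 libraries, AD/- library 3 lacked 32, AD/- library 1 lacked 23, AD/- library 2 lacked 15, and null libraries 1, 2 and 3 lacked 20, 21 and 15. Of the 9 regions found in 5 libraries, 6 were missing from AD/- library 3. In 22 of the 42 regions every library that lacked the region had another summit within 2 kb.

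Ranks were then compared over the regions found in all 6 libraries, where each library ranks the same 38374 regions. Of the 92 in the histone intervals, 4 (4.35%) ranked higher in every AD/- library than in every null library, against 5.05% of all shared regions, and 3 (3.26%) ranked lower, against 4.65%. These shares are near the background and are not a result about the histone intervals. With 1 library left out, 5 to 15 regions ranked higher (15 without null library 1) and 3 to 11 lower (11 without null library 3). The median difference over the 92 regions was 0.30 points, AD/- minus null, against −0.016 over all shared regions. Of the 31 histone start regions 15 had a positive difference, with a median of −0.08 and a range of −5.13 to 3.57.

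One of the 4 higher regions was a histone promoter, H2ac11-H2bc11, an H2A-H2B pair. Its rank percentile among shared regions was 93.0, 92.8 and 93.3 in AD/- libraries and 91.4, 90.8 and 91.7 in null libraries, a difference of 1.78 points. The others were the tRNA genes n-TWcca4 (7.64 points) and n-TSaga5 (5.03 points) and a region 3405 bp from Prss16 (3.69 points), the gene of a serine protease of the thymic cortex. Of the lower regions, one lay 1178 bp from the small nuclear RNA gene Gm24830 in Hist2 (−11.0 points) and one at the tRNA gene n-TEttc5 (−10.6 points). At n-TEttc5 the rank percentile was 10.3, 16.9 and 8.5 in AD/- libraries and 23.04, 22.3 and 22.2 in null libraries, without overlap.

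**Figure D5:**
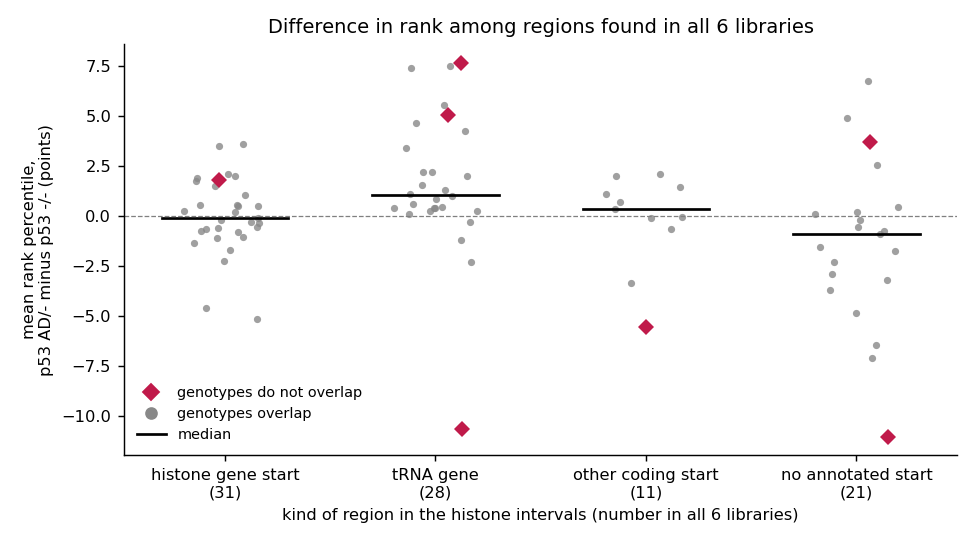
Each point is a region found in all 6 libraries, placed by kind (x axis) and by the mean rank percentile in p53 AD/- minus that in p53 -/- (y axis, points). Diamonds are the 7 regions whose libraries do not overlap between genotypes, black bars are medians, and histone start regions lie between −5.13 and 3.57 with a median of −0.08. A further shared region, at another annotated start, is not drawn.

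tRNA genes made up the largest other group in the intervals, with 79 in Hist1 and 5 in Hist2. Of the 84, 32 (38.1%) had a summit within 500 bp in all 6 libraries, 15 in some and 37 in none, at a median percentile of 67.7 for those in all 6. Of 324 tRNA genes elsewhere, 135 (41.7%) had one in all 6 libraries, at a median percentile of 83.5. The lower level in the intervals was present in each library: the median at tRNA genes was 64.7, 65.4 and 63.9 in the intervals in AD/- libraries 1 to 3, and 64.03, 63.4 and 61.8 in null libraries 1 to 3. Elsewhere it was 82.3, 83.9 and 81.7 in the AD/- libraries and 84.0, 82.4 and 84.0 in the null libraries. n-TSgct5 was the highest at 90.3. Of the 28 shared tRNA regions, 24 had a higher mean rank in AD/- (median difference 1.06 points). A higher mean rank in AD/- was found for 53 of the 92 shared regions of the intervals, the 28 included, and for 19075 of all 38374. Of the 28, 2 were above and 1 below without overlap. The count of 24 was noticed after the values were seen and was not tested, and no such count is given for tRNA genes elsewhere.

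Among the other genes of the intervals, the 75 vomeronasal receptor genes and pseudogenes, of the Vmn1r family, had no start summit in any library. They lie in a stretch of 1317.6 kb in Hist1, from 22051346 to 23368940 on chromosome 13, which had no summit in any library and holds 99 genes. The stretch ended at the tRNA gene n-TSgct5 on one side and at Zfp322a, a zinc finger gene, on the other. Without the receptor genes, 13 of 22 other coding genes had a start summit in all 6 libraries, Otud7b among them through its end outside the interval.

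By median percentile the 10 highest non-histone genes of the intervals were Zfp322a (94.8), Gm12257 and Zfp39 (93.6, one region), Trim17 (93.2), Sf3b4 (92.8), Gm11335 (91.2), Rnf187 (91.0), n-TSgct5 (90.3), Zfp184 (88.9) and Otud7b (85.5). Gm12257 and Gm11335 are long noncoding RNA genes. Sf3b4 encodes a subunit of the splicing factor SF3B, Zfp39 and Zfp184 encode zinc finger proteins, and Rnf187, Trim17 and Otud7b belong to ubiquitin ligase or deubiquitinase families. Trim17 shares its region with H2aw and Gm11335 shares its region with H4c8, so their values are those of histone starts. The table gives no strand for Otud7b, and its summit lies at the gene end at 96104504 on chromosome 3, outside Hist2. At its other end, inside Hist2, the summit stood at 5.6 and 9.2 in AD/- libraries 1 and 2 and at 6.6, 3.9 and 4.8 in null libraries 1 to 3, and AD/- library 3 had none.

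The Hist1 cluster goes on past the end of the interval, and 12 further histone genes lie there. Of these, 8 had a start summit in all 6 libraries, at median percentiles of 79.4 to 91.9. Over these 8 the median was 85.8, against 89.9 for protein-coding genes outside the intervals with a start summit in all 6 libraries. H3c1, H3c3, H2ac1 and H2bc1 had no start summit in any library. The H1 genes there, H1f1 (83.2) and H1f2 (91.9), had one in all 6 libraries. A list of 12 histone genes outside the clusters includes variant genes such as H3f3a, whose expression is not tied to S phase. Of these 12, 11 had a start summit in all 6 libraries at a median percentile of 90.9, and Macroh2a2 was the exception. Of protein-coding genes outside the intervals, 50.2% had one in all 6 libraries, at a median percentile of 89.9.

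Genes that serve the transcription, processing and use of histone mRNAs were open at nearly all starts. The list has 30 genes, among them Npat, Slbp (the stem-loop binding protein), Casp8ap2, Hinfp and the CAF-1 subunits Chaf1a and Chaf1b. Of the 30, 27 had a start summit in all 6 libraries (median percentile 93.9), against 50.2% of protein-coding genes outside the intervals (median percentile 89.9). The counts were 28, 27 and 28 in AD/- libraries 1 to 3 and 28, 28 and 28 in null libraries 1 to 3, so the libraries differed by 1 gene at most. Pou2f1 stood at 96.7 and 97.5 in AD/- libraries 1 and 3, and at 97.1, 97.3 and 13.5 in null libraries 1 to 3. In AD/- library 2 its nearest summit lay 622 bp away, past the limit of 500 bp, so none was counted. The summit counted in null library 3 lay 201 bp after a start. Those in AD/- libraries 1 and 3 and null libraries 1 and 2 lay 299 to 415 bp before one. For E2f1, an S phase transcription factor, the nearest summit lay 618 to 624 bp from the start, and for Ccne2, a cyclin E gene, 835 to 889 bp.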

How the data were processed

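Open chromatin was measured by ATAC-seq in 6 mouse thymus libraries. The authors deposited 1 list of MACS2 summits per library, with a score read as the −log10 q-value, since the lowest score of a list is 1.30 to 1.39 and −log10 of 0.05 is 1.30. The submitters' processing notes list the build GRCm38 and 4 tools with no settings: MACS2 2.1.2, Picard 2.9.0, Bowtie2 2.3.4.2 and Trim Galore 0.4.5. Any shift for the transposase, and the handling of duplicates and of reads that map to several places, are not given there.

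Windows of 250 bp on each side of a summit (chromosomes 1 to 19 and X) were merged over all libraries (Python 3.11.15, pandas 2.3.3, NumPy 2.4.6). Scores depend on depth, so they were used only as ranks within a library. Regions were compared in rank between genotypes only over those found in all 6, where every library ranks the same regions. Percentiles at single genes come from whole lists of unlike length, so differences between libraries in them are descriptions. Genes come from RefSeq (GRCm38.p6). A summit within 500 bp of the annotated start was counted, or of either end where no strand was given. Group means were compared by exact permutation of the library labels (20 relabellings, two-sided). The region and rank steps were tested on simulated data. Promoter windows were aligned with Biopython 1.88. Figures used matplotlib 3.10.9. Replicate numbers follow the order of deposition.

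The histone genes, lists and tests were chosen with earlier results of these data known. Named genes are the highest and lowest of each class, every histone gene found in some or no libraries, every region found in all libraries of 1 genotype and none of the other, the regions whose ranks did not overlap, the 10 highest other genes and list members without a summit in all libraries. A few items that this rule selects are not reported here.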

Additional observations from a re-analysis of the deposited data

How the results depend on the processing

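No paired analysis was possible because the labels give no replicate numbers. Settings tried were a minimum score of 5, lists shortened to equal length, extensions of 100 and 500 bp, start distances of 250 and 1000 bp, summits with overlapping windows counted once, and leaving out each library in turn. The difference in summits per library, AD/- minus null, was −4.67, became 1 with lists of equal length, and was −8.83 (without AD/- library 2, exact permutation p = 0.1, the smallest possible) to −0.33 (without AD/- library 3) with 1 library left out. The difference in the percent of summits in the intervals was 0.0039 points, and −0.0057 to 0.0100 with 1 library left out, turning negative without AD/- library 3. The difference in the percent of histone genes with a start summit was 0.58 points, −3.51 with a start distance of 1000 bp, and 0 to 0.88 with 1 library left out. At 1000 bp, H4c17, H4c18 and H3c13 count in AD/- library 2 and all null libraries only. The difference in percentile between histone and other coding starts ranged from 2.20 to 2.56 points with 1 library left out and from 2.1 to 2.85 under the other settings, always positive. With 1 library left out, the counts of regions in AD/- only ranged from 1 to 2, in null only from 0 to 3, ranked above from 5 to 15 and ranked below from 3 to 11. Fewer libraries make both conditions easier to meet. The null-only count was 3 without AD/- library 2 and 3 without null library 1, and the AD/- only count was 2 without null library 1 or 3. The count ranked above was 15 without null library 1 and 8 to 10 without any single AD/- library. The count ranked below was 11 without null library 3 and 7 without null library 2. Other settings left these 4 counts at their values. Depth is unknown, so no setting shows how many missing summits deeper sequencing would call.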
